A study of Homo sapiens with 6 samples.

Results

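The genes described here encode the chaperones and folding enzymes of the endoplasmic reticulum, 39 genes of the 19240 in the counts table. They were chosen by name, from a fixed list made with earlier results of these data known. Rows of the table, which lists genes by Entrez Gene number, were taken by official symbol, and all 39 were found. They fall into 4 classes: 10 chaperones and co-chaperones, 17 disulfide isomerases and oxidases, 4 lectins and glucosyltransferases, and 8 prolyl isomerases. The cells were A549, a long-established line from a human lung carcinoma, and the sequencing tagged each transcript at its 3' end. One group of 3 libraries came from cells kept for 48 h with 25 mM glucose, and the other group of 3 from cells kept for 48 h without glucose; no other agent, allele or treatment is named for either group. Separate cultures are not stated for the replicates, so each p-value reflects the spread among the libraries alone, and that spread may be technical.

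Secreted and membrane proteins fold in the endoplasmic reticulum. Hsp70- and Hsp90-type chaperones hold unfolded chains there, protein disulfide isomerases make and rearrange disulfide bonds with oxidizing power from the ERO1 oxidases, calnexin and calreticulin bind chains through their N-linked sugar, and prolyl isomerases turn proline bonds. When unfolded chains build up, the unfolded protein response raises many of these genes through ATF6 and XBP1, factors that bind the ER stress response element of promoters. Lack of glucose is a classic trigger, since N-linked sugar is made from it, and the names GRP78 (HSPA5) and GRP94 (HSP90B1) stand for glucose-regulated proteins.

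Depth, as the sum over genes, was 6701004 to 14259943 counts in the group with glucose and 11086416 to 14060313 in the other. Replicate 1 with glucose and replicate 2 without glucose had the highest scores of their groups on the second principal component, which held 17.6% of the variance (the first, 57.4%, separated the groups). All 8 A549 and epithelial markers had counts, with a summed level of 8538 to 9290 CPM with glucose and 6212 to 7074 CPM without; KRT8, KRT18 and AKR1B10 fell. The surfactant genes SFTPA1, SFTPA2 and SFTPC had a count of 0 in every library (a level under 3 counts), as had CDKN2A, which this line is known to lack. The 7 alveolar type 2 markers, these surfactant genes among them, summed to 0.672 to 1.13 CPM with glucose and 7.88 to 8.35 CPM without, nearly all of the latter from LAMP3, a lysosomal membrane protein that rose. The 3 leukocyte markers summed to 14.3 to 16.4 CPM with glucose and 24.8 to 39.2 CPM without, nearly all of it from the lysosomal gene CD68, and CD3E was at 0. The 4 fibroblast markers summed to 13.0 to 14.7 CPM and 4.52 to 5.89 CPM, with COL1A2 and DCN at 0. The part of these markers in the results was not tested. CPM is the usual depth-scaled count, here after TMM scaling, which corrects for differences in library composition. Reads that aligned equally well to several places (18.4% to 22.2%) were not in the gene counts, so genes with near-identical copies, such as HSPA5, PDIA3 and FKBP9, carry some uncertainty.

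Without glucose, 23 of the 39 genes rose and none passed the test as lower. All 39 were among the 11886 genes tested. The call was an adjusted p under 0.05 by edgeR's quasi-likelihood F test, adjusted by Benjamini-Hochberg over all genes tested, of which 11.6% were called higher and 10.7% lower. At an unadjusted p under 0.05 there were 28 higher genes of the 39 and 1 lower, against 2307 and 2027 of the 11886. DESeq2 called 24 higher and 0 lower of the 39, against 1541 and 1581 of the 11886. For 25 of the 39 genes, each library without glucose had a higher CPM than each of those with glucose, against 21.0% of all genes tested, and for 1 gene each had a lower CPM, against 19.4%. The median log2 fold change (without against with glucose) was 0.91 over the 39 genes and 0.02 over all genes tested, and single genes ranged from −0.58 for SDF2 to 3.76 for CRELD2. In bulk libraries, fewer cells expressing a gene and less RNA of it per cell cannot be told apart. As a share of gene counts, the 39 genes took 0.622%, 0.724% and 0.704% of replicates 1, 2 and 3 with glucose and 3.04%, 2.90% and 2.56% of those without. HSPA5 and HSP90B1 made up 23.5% to 33.1% of this summed level with glucose and 54.0% to 59.2% without. Leaving them out, the summed level of the other genes was 4681 ± 154 CPM with glucose and 12724 ± 453 CPM without (mean ± SD, n = 3 per group).

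**Figure D1:**
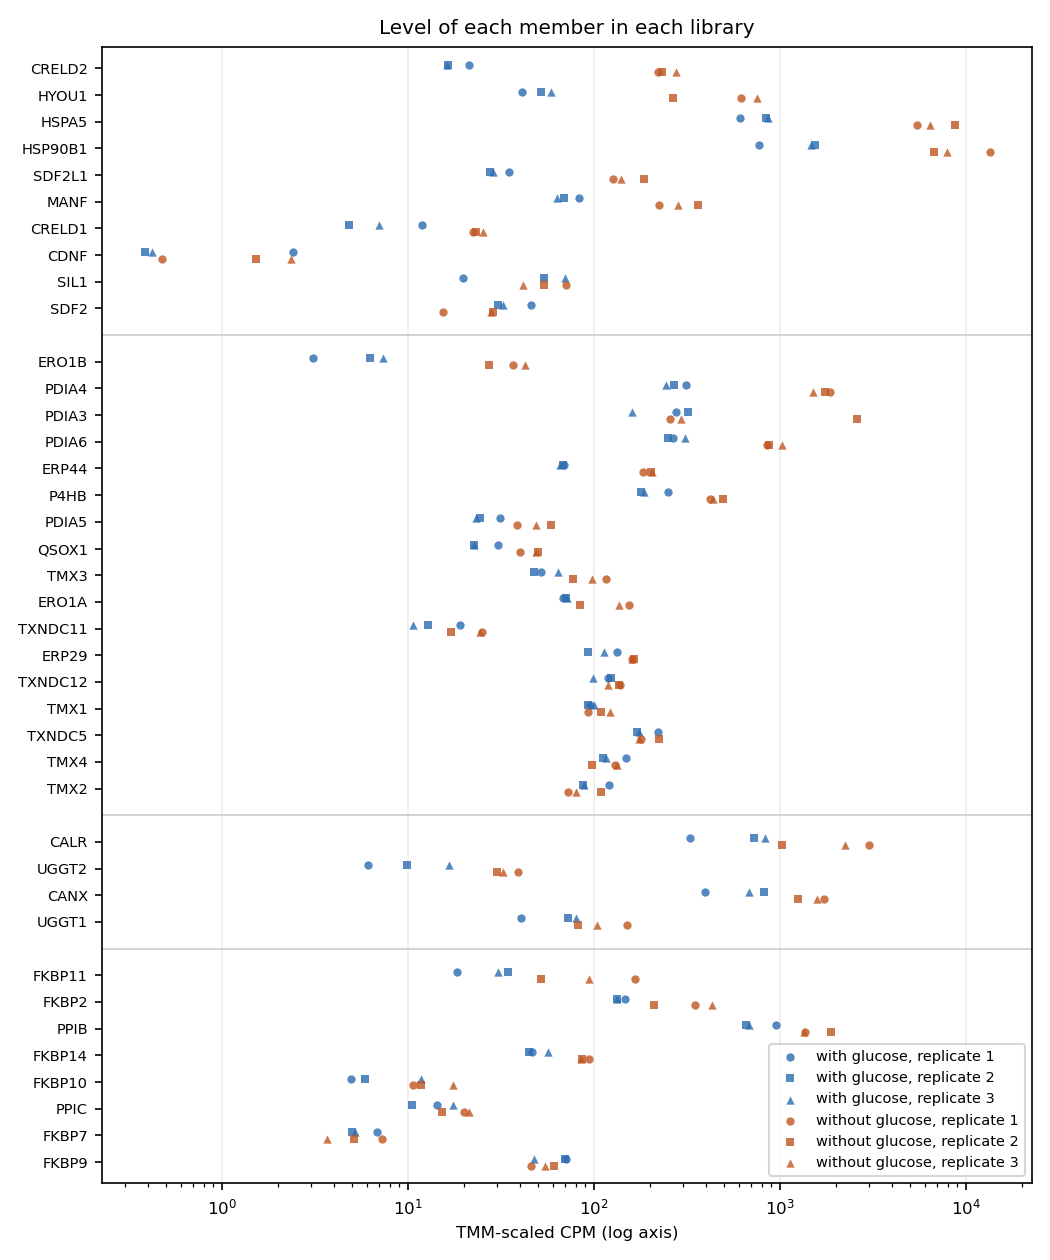
Level of each of the 39 genes in each library, as TMM-scaled CPM on a log axis, grouped by class and ordered within a class by fold change; blue points are the 3 libraries with glucose, orange points the 3 without. For 25 genes all orange points lie to the right of all blue points, and PDIA3 has 1 orange point far from the other 2.

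Genes rose in each of the 4 classes. Chaperones and co-chaperones rose in 7 of 10 cases (median log2 fold change 2.16), and their summed level went from 2297 ± 563 to 17558 ± 2303 CPM. Disulfide isomerases and oxidases rose in 9 of 17 cases (median 0.83), lectins and glucosyltransferases in 3 of 4 (median 1.44), and prolyl isomerases in 4 of 8 (median 0.82). No class held a gene called lower, by edgeR or by DESeq2; at an unadjusted p under 0.05 the chaperones held 1 and the other classes 0. The differences between classes were not tested. Leaving out replicate 2 with glucose gave 5 disulfide isomerases and oxidases called higher in place of 9, and leaving out replicate 3 with glucose gave 6. Over all genes tested, the same omissions gave 860 and 894 genes called higher in place of 1376, so fewer calls were not particular to this class.

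**Figure D2:**
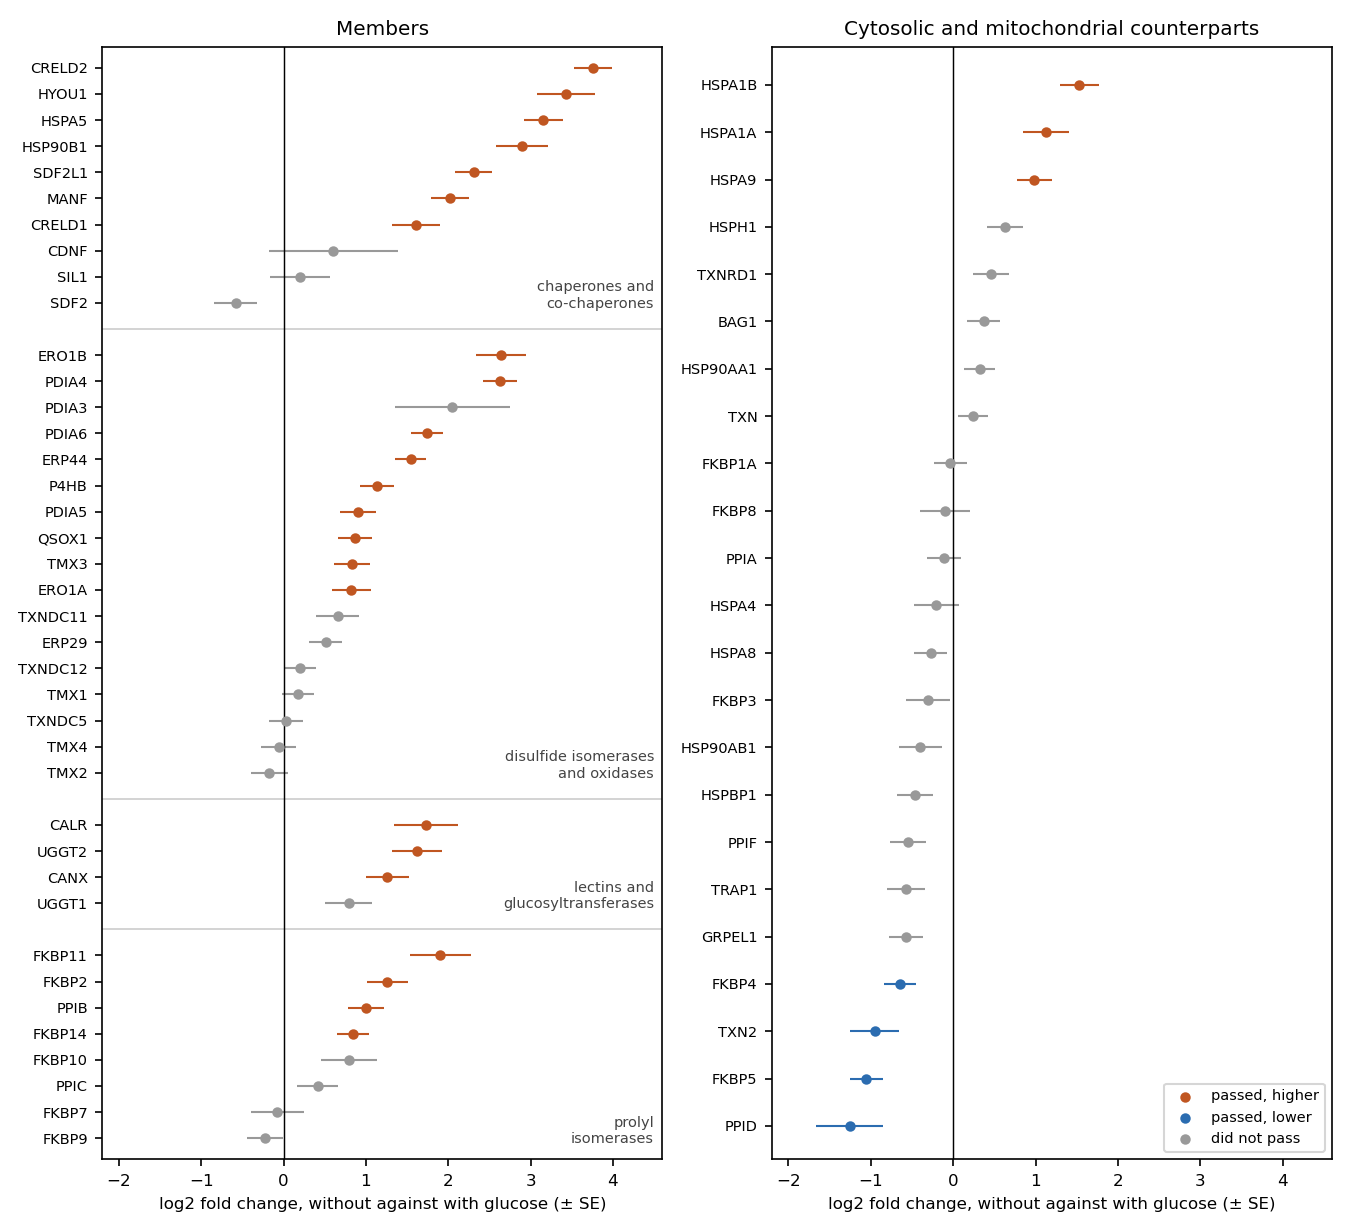
Log2 fold change without against with glucose, with its SE, for the 39 genes by class (left) and for 23 cytosolic and mitochondrial counterparts (right); orange points passed as higher, blue points as lower, and grey points did not pass. On the left 23 points are orange and 0 blue, on the right 3 are orange and 4 blue.

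The promoters of the genes were searched for known elements of the response. These elements carry its name, so their presence in genes already known to respond is not independent support. The windows were 250 bases before to 50 bases after each start in RefSeq (build GRCh38.p14), held for 36 of the 39 genes; PDIA3, FKBP10 and FKBP14 had none. On both strands, 4 motifs were sought: the ER stress response element ERSE (CCAAT, any 9 bases, then CCACG), its variant ERSE-II (ATTGG, any 1 base, then CCACG), UPRE (TGACGTGG), and the C/EBP-ATF element (TGATGNAA) bound by ATF4 and CHOP. An exact ERSE stood in the window of 7 of the 36 genes (19.4%), against 0.0916% of the 27305 genes with a window and 0.163% of the tested ones. These were HSPA5, HSP90B1, CRELD2, PDIA6, ERO1B, CALR and CANX, and each of them rose. An exact ERSE-II stood before HYOU1, which holds 2, and SDF2L1 (5.56% of the genes, against 0.0696% of all), and both rose. None of the 14 genes with a window that did not pass held an exact ERSE or ERSE-II. At 0.163% and 0.133% of tested genes, these matches are too rare for 14 genes to show a lack of them. PDIA3 and FKBP10, which did not pass either, could not be searched. The stretches around these matches are shown because they carry the letters that the 9 genes share, with those letters in capitals; where the match is on the opposite strand it reads CGTGG before ATTGG (ERSE) or CGTGG before CCAAT (ERSE-II). All run 5′ to 3′ on the gene's strand.
HSPA5 (chr9:125241379-125241421, minus strand): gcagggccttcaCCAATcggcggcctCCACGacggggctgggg
CRELD2 (chr22:49918542-49918584, plus strand): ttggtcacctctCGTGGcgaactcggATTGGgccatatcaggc
HSP90B1 (chr12:103930204-103930351, plus strand): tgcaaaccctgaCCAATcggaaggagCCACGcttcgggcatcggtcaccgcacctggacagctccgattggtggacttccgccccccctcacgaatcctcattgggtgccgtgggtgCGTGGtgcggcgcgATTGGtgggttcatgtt
HYOU1 (chr11:119057262-119057402, minus strand): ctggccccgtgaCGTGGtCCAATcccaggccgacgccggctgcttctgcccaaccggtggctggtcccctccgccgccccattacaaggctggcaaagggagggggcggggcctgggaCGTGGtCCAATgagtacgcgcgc
SDF2L1 (chr22:21642102-21642136, plus strand): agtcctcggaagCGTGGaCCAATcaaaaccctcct
PDIA6 (chr2:10812841-10812883, minus strand): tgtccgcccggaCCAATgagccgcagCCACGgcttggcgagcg
ERO1B (chr1:236282171-236282208, minus strand): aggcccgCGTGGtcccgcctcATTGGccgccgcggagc
CALR (chr19:12938372-12938414, plus strand): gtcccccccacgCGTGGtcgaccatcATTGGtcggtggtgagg
CANX (chr5:179698766-179698808, plus strand): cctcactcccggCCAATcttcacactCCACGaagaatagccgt

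HSP90B1 holds 2 ERSE matches in opposite orientations. The first letters of the matches lie 66 bases before the start in HSPA5, 80 in CRELD2, 86 in PDIA6, and 79 and 185 in HYOU1, whose farther match overlaps the only UPRE among the genes that rose. UPRE also stood in the windows of TXNDC5 and TXNDC11, which did not pass. In all, 3 of the 36 genes held a UPRE (8.33%, against 0.927% of all genes and 1.2% of the tested ones). The C/EBP-ATF element stood in none of the 36, against 4.46% of all genes and 2.72% of the tested ones, shares too low for 36 genes to show a lack. Over the whole table, 16 tested genes held an exact ERSE, and 14 of them were called higher (87.5%, median log2 fold change 1.43), against 11.1% of the tested genes without one. An exact ERSE-II stood in 13 tested genes, of which 38.5% were called higher (HYOU1, SDF2L1, HERPUD1, NAV2 and NUCB1; median log2 fold change of the 13, 0.10), and 3 were called lower, GYS1, SHCBP1 and ZNF143. An exact UPRE stood in 118 tested genes, of which 22.0% were called higher. Besides the 7 genes above, the higher genes with an ERSE were ALG12, EIF2A, FICD, SERP1, SYNPO, TRIM5 and XBP1, named after their values were seen; TMEM120A and ZNF17 did not pass. The 16 genes are not independent, since ALG12 shares its match with CRELD2 and EIF2A shares one with SERP1. With 1 mismatch allowed, 10 of the 36 genes held an ERSE, all of them called higher, but so did 258 tested genes of the whole table, of which 17.4% were called higher. A match is a run of letters, not a measured binding site.

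**Figure D3:**
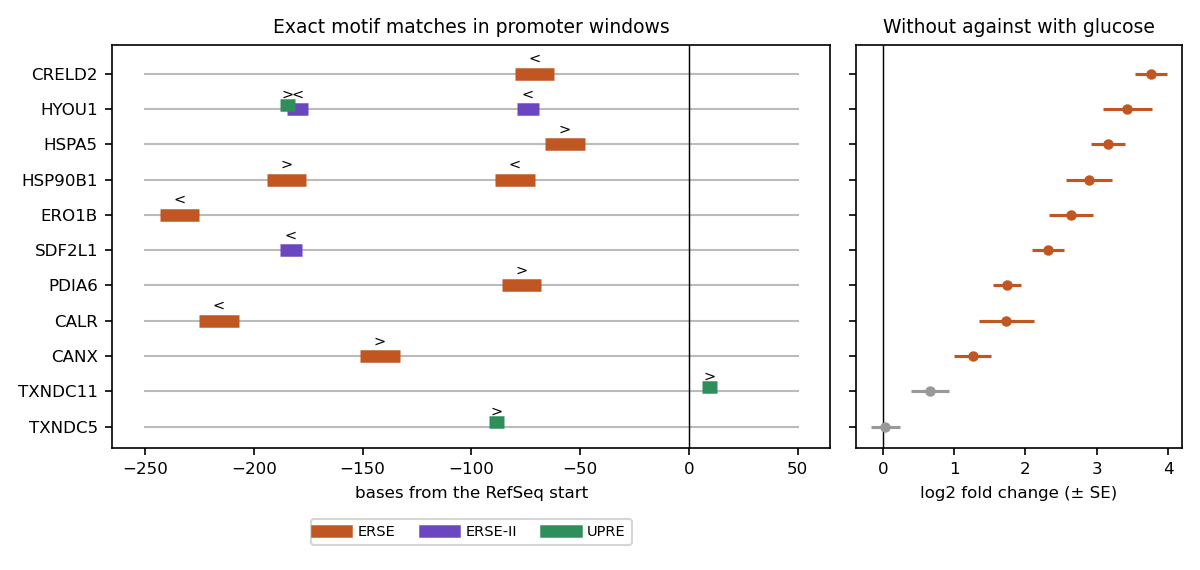
Exact matches of ERSE, ERSE-II and UPRE in the promoter windows of the genes that hold one, by distance in bases from the RefSeq start (left; arrowheads give the strand of the match), beside the log2 fold change of each gene with its SE (right). For CANX, which has several starts, the window with the match 151 bases before the start is drawn. The 9 genes with an ERSE or ERSE-II passed as higher (orange), and the genes with UPRE alone did not pass (grey).

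Among the chaperones, CRELD2, a stress-induced secreted protein that binds folding enzymes, had the highest fold change. Its level was 21.3, 16.4 and 16.3 CPM in replicates 1, 2 and 3 with glucose and 220, 231 and 276 CPM in those without. The groups lay far apart, with a log2 fold change of 3.76 ± 0.23 (SE) and an adjusted p of 4.82e-06. HSPA5, the Hsp70 chaperone of the compartment (also called BiP), was at 613, 842 and 864 CPM with glucose and 5464, 8711 and 6448 CPM without. It rose 8.89-fold (log2 fold change 3.15 ± 0.24, adjusted p 2.01e-05), and replicate 2 was the highest of the libraries without glucose. SDF2L1, which works with HSPA5 and its J-domain partners, was at 34.9, 27.8 and 28.6 CPM with glucose and 127, 186 and 139 CPM without. HYOU1, the large Hsp70-related protein that exchanges the nucleotide of HSPA5, was at 41.3, 51.8 and 58.7 CPM with glucose and 614, 266 and 757 CPM without. Both rose, with log2 fold changes of 2.31 ± 0.23 and 3.43 ± 0.35; for HYOU1 replicate 2 without glucose lay well below the other 2, though above every library with glucose.

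HSP90B1, the Hsp90 chaperone, rose from 773, 1537 and 1469 CPM to 13427, 6726 and 7898 CPM (log2 fold change 2.89 ± 0.32). MANF, a small secreted protein that binds HSPA5, was at 82.8, 68.7 and 63.6 CPM with glucose and 225, 363 and 282 CPM without. CRELD1, a membrane-bound relative of CRELD2, was at 11.9, 4.80 and 6.97 CPM with glucose and 22.4, 23.3 and 25.2 CPM without. Both rose with groups that did not overlap, by 2.02 ± 0.23 and 1.61 ± 0.30 on the log2 scale. The genes of this class that did not pass were SIL1, SDF2 and CDNF. SIL1, the other nucleotide exchange factor of HSPA5, was at 19.8, 54.0 and 70.2 CPM with glucose and 71.1, 54.1 and 41.4 CPM without. Those groups overlapped, and the log2 fold change of 0.20 ± 0.36 turned to −0.17 without replicate 1 with glucose and to −0.02 without replicate 1 of the other group. SDF2, the close relative of SDF2L1, was at 45.6, 30.5 and 32.4 CPM with glucose and 15.5, 28.8 and 28.0 CPM without. It is the gene whose libraries without glucose all lay below those with glucose, by a narrow margin for replicates 2 and 3 (log2 fold change −0.58 ± 0.26, adjusted p 0.132). CDNF, the relative of MANF, was near the limit of detection, with 27 counts over the libraries with glucose and 57 over those without.

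Fold changes of the disulfide isomerases and oxidases ran from several-fold down to none, with PDIA5, QSOX1, TMX3 and ERO1A (1.77-fold to 1.87-fold) in between. PDIA4, an isomerase with 3 active domains, was at 312, 270 and 243 CPM with glucose and 1850, 1747 and 1501 CPM without. PDIA6, which pairs with HSPA5, was at 265, 251 and 310 CPM with glucose and 855, 878 and 1030 CPM without. The libraries of each group lay close together, and both genes rose, with log2 fold changes of 2.63 ± 0.20 and 1.74 ± 0.20 and adjusted p of 2.11e-05 and 1.54e-04. ERP44, which retains ERO1 oxidases and unassembled cargo, was at 69.4, 68.1 and 65.6 CPM with glucose and 184, 203 and 206 CPM without. It rose 2.92-fold, with the groups far outside each other's spread. P4HB, the founding isomerase of the family and a subunit of collagen prolyl 4-hydroxylase, rose 2.19-fold (log2 fold change 1.13 ± 0.21), and PDIA5 had a log2 fold change of 0.91 ± 0.22. TMX3, a membrane-bound isomerase, rose by 0.83 ± 0.22 on the log2 scale. PDIA5 lost its call without replicate 2 or 3 with glucose (adjusted p 0.0561 and 0.0589), and TMX3 lost its call without replicate 2 with glucose (0.0817) and without replicate 1 or 3 of the other group (0.0634 and 0.0552).

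Of the oxidases, ERO1B, which reoxidizes the isomerases and is best known from secretory cells, was at 3.11, 6.24 and 7.39 CPM with glucose and 36.8, 27.4 and 42.9 CPM without. It rose 6.23-fold (log2 fold change 2.64 ± 0.30, adjusted p 1.69e-04), from 192 counts in all with glucose to 1328 without. ERO1A, its widely expressed relative, was at 68.4, 71.1 and 72.0 CPM with glucose and 155, 84.0 and 136 CPM without. It passed with a log2 fold change of 0.82 ± 0.24 (adjusted p 0.0263), but only the omission of replicate 2 without glucose kept that call among the 6 single-library omissions; without any other library, and with a replicate block, its adjusted p was 0.0536 to 0.0996. QSOX1, an oxidase that makes disulfides in a single chain, rose by 0.87 ± 0.21 on the log2 scale, and not without replicate 2 or 3 with glucose (adjusted p 0.0560 and 0.0547).

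The isomerases that did not pass were PDIA3, ERP29, TXNDC5, TXNDC11, TXNDC12, TMX1, TMX2 and TMX4. TXNDC5, an isomerase with 3 thioredoxin domains, was at 222, 170 and 174 CPM with glucose and 179, 225 and 175 CPM without, so that the groups overlapped throughout (log2 fold change 0.03 ± 0.21). TXNDC12, TMX1, TMX2 and TMX4 had log2 fold changes between −0.17 and 0.20, each with overlapping groups. ERP29, an escort of secretory proteins without a redox site, was at 133, 92.9 and 114 CPM with glucose and 160, 165 and 161 CPM without; all libraries without glucose were higher, and the adjusted p was 0.0835. It passed without replicate 1 with glucose (0.0447), as did TXNDC11, a membrane-bound thioredoxin-like protein (0.0905 with all libraries, 0.0258 without that one).

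PDIA3, the isomerase that works with calnexin and calreticulin on glycoproteins, rested on a single library. It was at 277, 322 and 159 CPM with glucose and at 257, 2585 and 294 CPM in replicates 1, 2 and 3 without glucose, so replicate 2 held 10.1 times the level of replicate 1 and 8.79 times that of replicate 3. Over all 11886 tested genes and 6 libraries, this was the widest gap between a library and the next highest of its group, 8.76-fold with 1 CPM added (GSTM3 in replicate 3 without glucose followed, with 6.95-fold). The log2 fold change was 2.05 ± 0.70 with an adjusted p of 0.0534. Without replicate 2 of the cells without glucose it was 0.11 (adjusted p 0.814), while without replicate 1 or replicate 3 of that group it was 2.51 and 2.50 (0.0216 and 0.0314). DESeq2 gave no adjusted p for PDIA3. Whether this library's count stems from the cells or from the library was not tested. With PDIA3 left out, the summed level of the disulfide isomerases and oxidases was 1756 ± 162 CPM with glucose and 4446 ± 72.4 CPM without.

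**Figure D4:**
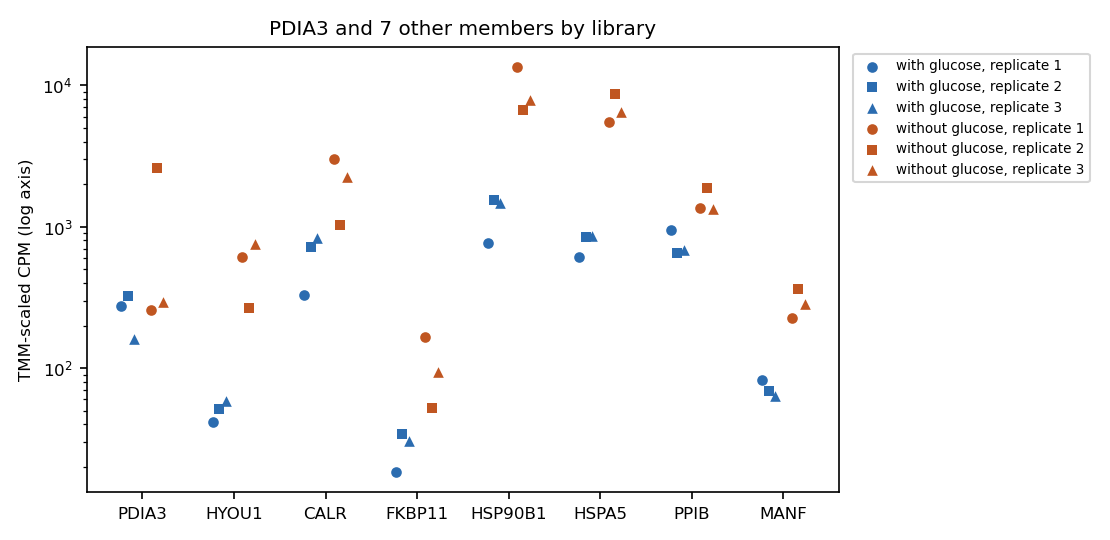
TMM-scaled CPM (log axis) of PDIA3 and 7 other genes in each library, with glucose in blue and without in orange; each marker shape is 1 replicate number. PDIA3 reached 2585 CPM in replicate 2 without glucose and 294 CPM or less elsewhere in that group, and HYOU1, CALR, FKBP11 and HSP90B1 were lowest there in that same replicate.

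The lectin cycle rose at its chaperones. CALR, the soluble lectin calreticulin, was at 330, 725 and 835 CPM with glucose and 3015, 1028 and 2234 CPM without. CANX, its membrane-bound relative calnexin, was at 394, 824 and 683 CPM with glucose and 1731, 1247 and 1574 CPM without. In both, every library without glucose was above every one with glucose, and the log2 fold changes were 1.73 ± 0.39 and 1.26 ± 0.26 (adjusted p 0.00772 and 0.00522). UGGT1 and UGGT2 are the glucosyltransferases that mark misfolded glycoproteins for another round of lectin binding. UGGT2 was at 6.08, 9.89 and 16.5 CPM with glucose and 39.1, 30.3 and 32.6 CPM without, and rose by 1.62 ± 0.30 on the log2 scale. UGGT1 was at 40.6, 72.2 and 80.4 CPM with glucose and 150, 81.7 and 104 CPM without. Its groups did not overlap, though the nearest libraries almost met, and it did not pass (log2 fold change 0.79 ± 0.29, adjusted p 0.0656). Its adjusted p was below the threshold with replicate 2 of the glucose-free group left out (0.0483), with no filter on low counts (0.0395) and with DESeq2 (0.0422).

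Prolyl isomerases of both families, FKBP proteins and cyclophilins, were among the genes that rose. FKBP11, an isomerase best known from secretory tissues, was at 18.4, 34.4 and 30.3 CPM with glucose and 166, 52.3 and 94.4 CPM without. FKBP2 was at 147, 133 and 133 CPM with glucose and 349, 211 and 429 CPM without. The groups of both did not overlap, and the log2 fold changes were 1.91 ± 0.37 and 1.26 ± 0.25. PPIB, the cyclophilin of the compartment, was at 951, 657 and 686 CPM with glucose and 1366, 1875 and 1345 CPM without. FKBP14, which acts on collagens, was at 46.4, 44.9 and 56.5 CPM with glucose and 94.5, 86.4 and 85.2 CPM without. These rose as well (adjusted p 0.00713 and 0.00895), FKBP14 1.80-fold and PPIB from 765 ± 162 CPM to 1529 ± 300.4 CPM (SD, n = 3). FKBP7, FKBP9, FKBP10 and PPIC did not pass (log2 fold changes from −0.22 to 0.79), and their groups overlapped. FKBP10, another isomerase of collagen folding, passed without replicate 3 with glucose (adjusted p 0.0226, against 0.107 with all libraries).

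Ratios of related genes were compared within libraries, in a test that no pair could pass with 3 libraries against 3. A ratio of 2 genes in the same library does not depend on how libraries are scaled, so 20 pairs of related or partner genes were compared as the log2 ratio of their CPM, with 0.5 counts added. The ratio of SDF2L1 to SDF2 was −0.39, −0.13 and −0.18 with glucose and 3.03, 2.69 and 2.31 without, a ratio 7.52-fold higher on average. HYOU1 to SIL1, the alternative exchange factors of HSPA5, was 7.74-fold higher without glucose, and CRELD2 to CRELD1 4.22-fold. ERO1B to ERO1A went from −4.43, −3.50 and −3.28 to −2.07, −1.62 and −1.66, or 3.87-fold higher. UGGT1 to UGGT2 went the other way, from 2.72, 2.86 and 2.28 to 1.94, 1.43 and 1.67. So did ERP29 to ERP44, from 0.94, 0.45 and 0.79 to −0.20, −0.30 and −0.36. The ratios of the groups did not overlap in 11 of the 20 pairs and overlapped in 9, among them CALR to CANX, PPIB to PPIC and MANF to CDNF. How often ratios of other gene pairs do not overlap was not computed. For single genes tested, the CPM of the groups did not overlap in 21.0% (higher without glucose) and 19.4% (lower). With 3 libraries against 3, the two-sided exact permutation test cannot go below 0.1, which each of the 11 pairs reached (0.182 after Benjamini-Hochberg adjustment over the 20 pairs), and the pairs were chosen with earlier results of these data known.

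Of the 20 pairs, 2 set a chaperone against its counterpart outside the compartment. These could not pass either, since the exact permutation test cannot go below 0.1. HSPA5 to HSPA8, the constitutive Hsp70 of the cytosol, went from −0.63, −0.37 and −0.39 to 2.41, 3.53 and 2.94 on the log2 scale, or 10.7-fold higher. HSP90B1 to HSP90AA1, a cytosolic Hsp90, was 5.97-fold higher.

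**Figure D5:**
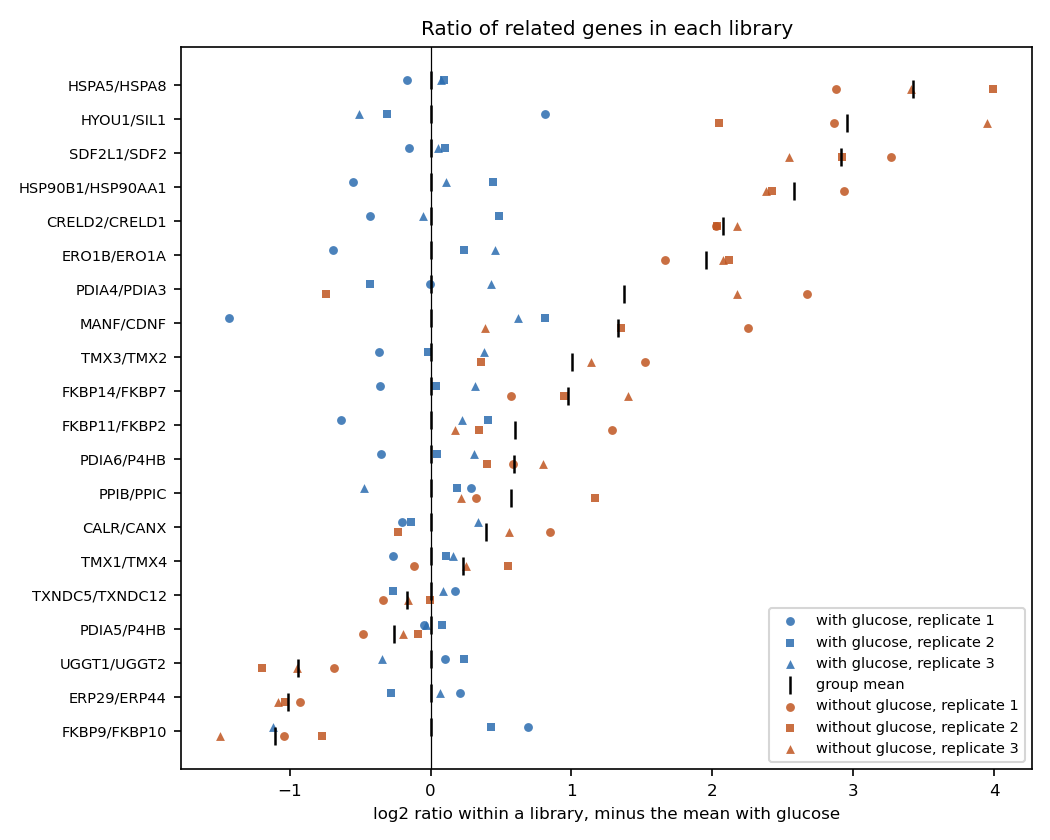
Log2 ratio of each of the 20 pairs in each library, minus the pair's mean with glucose; blue points are libraries with glucose, orange points those without, and black ticks the group means. The top 6 pairs have orange points to the right of all blue ones, and for PDIA4/PDIA3 the orange points spread over both sides.

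Deviations from the group means went in part alike in 2 libraries of different groups, replicate 1 with glucose and replicate 2 without. Across all genes tested, their correlation was the highest of any pair across the groups (0.25, where the lowest was −0.27). Deviations within a group cancel out, so some pair across the groups comes out positive in any data, and shared spread was not tested. Replicate 1 with glucose and replicate 2 without glucose were both the lowest of their groups for 9 of the 39 genes (23.1%, against 17.6% of all genes tested): HSP90B1, HYOU1, ERO1A, ERO1B, CALR, CANX, UGGT1, UGGT2 and FKBP11. Both were the highest of their groups for 11 genes (28.2%, against 18.9% of all tested), SDF2, SDF2L1, MANF, PDIA5, P4HB, TXNDC5, TMX2, ERP29, QSOX1, FKBP9 and PPIB. HSPA5 was lowest in the former library and highest in the latter (2.56%, against 8.23% of all tested), and TXNDC11, TMX4 and FKBP2 were the reverse (7.69%, against 9.62%). Across the 39 genes, the deviations of these 2 libraries from the others of their groups correlated with r = 0.412 and rho = 0.533. Across all 11886 genes r was 0.311 and rho 0.305. This 0.311 and the 0.25 above concern the same 2 libraries and are not separate results. They differ in the small amount added before the log. Genes share the libraries and are not independent replicates. What the 2 libraries have in common was not tested. Without the former, 24 of the 39 genes were called higher, and without the latter also 24. Over all genes tested, 1292 and 1157 were called higher under these omissions, against 1376 with all libraries. The log2 fold change of CALR was 1.42 and 2.04 under these omissions, that of HYOU1 3.30 and 3.74, and that of FKBP11 1.69 and 2.21, and each passed in both.

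Other genes of the same pathway, from lists made by function, rose in part. Of all genes tested, 11.6% were called higher and 10.7% lower. Of 18 stress sensors and regulators 9 rose, among them HERPUD1, which helps to clear misfolded proteins, DDIT3, which encodes CHOP, and ATF6 (log2 fold changes 2.19 ± 0.23, 1.70 ± 0.22 and 1.24 ± 0.19). XBP1 rose by 0.98 ± 0.19, while ERN1, which encodes the sensor that splices XBP1, had 0.39 ± 0.38 and did not pass. The median of this list was 0.66. All 6 J-domain partners of HSPA5 rose (DNAJB9, DNAJB11, DNAJC3, DNAJC10, SEC63 and DNAJC1), with log2 fold changes from 0.76 to 2.56 and a median of 2.11.

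Of 18 tested genes among other folding and redox factors 4 rose (22.2%, against 11.6% of all genes tested). CLGN, a relative of calnexin, rose by 2.40 ± 0.33, HSPA13 by 1.57 ± 0.20, SELENOS by 1.46 ± 0.30 and SELENOM by 0.71 ± 0.22. The median of these 18 was 0.29, and the peroxide-using PRDX4 (0.03 ± 0.20) and the collagen chaperone SERPINH1 (0.30 ± 0.24) did not pass. Glycan trimming and cargo lectin genes rose in 5 of 13 cases, led by EDEM1, LMAN1 and OS9 (1.46 ± 0.22, 1.26 ± 0.20 and 1.49 ± 0.27), with a median of 0.36. Of the receptors that retrieve escaped chaperones from the Golgi, KDELR3 rose by 1.18 ± 0.21, and KDELR1 and KDELR2 did not pass (−0.33 ± 0.23 and 0.60 ± 0.21). None of these 5 lists held a gene called lower by edgeR or DESeq2, where edgeR called 10.7% of all genes tested lower. The lists are short, so 0 lower genes in the smallest of them says little. At an unadjusted p under 0.05, the glycan-binding MLEC was lower (−0.45 ± 0.20) and none in the other 4 lists.

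Among counterparts of the 39 genes in the cytosol and mitochondria, 3 of 23 tested rose (13.0%) and 4 fell (17.4%), against 11.6% and 10.7% of all genes tested, with a median log2 fold change of −0.20, where the 39 genes had 23, 0 and 0.91. HSPA1B and HSPA1A, near-identical inducible Hsp70 genes whose reads cannot be fully told apart, rose by 1.53 ± 0.24 and 1.13 ± 0.28, and HSPA9, the mitochondrial Hsp70, by 0.99 ± 0.21. FKBP5, an Hsp90 partner, fell by 1.05 on the log2 scale (adjusted p 0.00292), and FKBP4, TXN2 and PPID also fell. The groups of PPID overlapped, at 33.4, 112 and 164 CPM with glucose and 39.2, 45.1 and 45.4 CPM without (adjusted p 0.0444).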

How the data were processed

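The authors deposited a table of raw counts of reads per gene for 6 libraries, made with STAR and HTSeq on build hg19, per the submitters' processing notes; versions, annotation and strand setting of the counting: not given in the sources used here. The protocol calls the libraries strand-specific, but antisense partners may share counts. Per the labels' protocols, cDNA was primed with barcoded oligo-dT, pooled by an Actb signal and amplified for 12 cycles, with no molecular identifiers named, so PCR copies count as reads and floors (3 counts) cover counting error only. Entrez numbers were matched to symbols (19178 of 19240) through RefSeq of GRCh38.p14; promoter windows come from that build and carry no coordinate of the counts. Reads outside any gene, with several alignments or ambiguous stand on 5 HTSeq summary lines, which stayed out of library sizes and tests; between 43.1% and 44.7% of reads fell in genes.

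Groups came from the sample titles. The quasi-likelihood test of edgeR 4.0.16 (two-sided, R 4.3.3) used TMM scaling, filterByExpr at a minimum count of 10, 2 groups as the only term, and p-values adjusted by Benjamini-Hochberg over 11886 genes; it was tested on simulated data. The SE was taken as the absolute log2 fold change over the root of F. DESeq2 1.42.0, other scalings and filters, a replicate block and omission of each library were alternatives. Libraries of a group differed by more than sampling noise (chi-square per degree of freedom 19.8 to 50.9), so none were merged. The 39 genes, the lists and the pairs were chosen with earlier results of these data known. Values per library are given for the 4 genes of each class with the smallest p and for genes of the pairs discussed; of other lists, for up to 3 that passed with the smallest p, others being named after their values were seen. Protein features were not analysed here.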

Additional observations from a re-analysis of the deposited data

How the results depend on the processing

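Of the 23 genes called higher, 19 kept the call under all 12 alternatives; PDIA5, TMX3, ERO1A and QSOX1 lost it in some omissions of 1 library. With a replicate block 22 of the 39 genes were called higher, ERO1A being lost (adjusted p 0.0647), and 984 genes of the whole table were higher and 911 lower; the numbers were not taken to pair the libraries, since same-numbered libraries had deviations correlated at −0.27, −0.12 and 0.04. When 1 library was left out, 19 to 24 of the 39 genes were called higher and 0 lower, 5 to 10 disulfide isomerases and oxidases were higher, and the median log2 fold change was 0.88 to 1.05. Of all genes tested, 860 to 1292 were then higher and 781 to 1232 lower, against 1376 and 1276 with all libraries: fewest higher without replicate 2 (860) or 3 (894) with glucose or replicate 3 without it (870), and fewest lower without that last library. The uncalled genes that changed sign were SIL1 (−0.17 to 0.58 when 1 library was left out), TXNDC5 (−0.10 to 0.16, and −0.024 with library totals as scaling), TMX4 (−0.14 to 0.074) and FKBP7 (−0.35 to 0.14). With 1 mismatch allowed, 5 of 36 genes held an ERSE-II (13.9%, against 2.36% of tested genes), 18 a UPRE (24.8% of tested genes) and 11 a C/EBP-ATF element (30.6%, against 36.6%). Counts summed over the libraries with and without glucose were few for CDNF (27 and 57) and FKBP7 (174 and 194). With glucose they were also low for ERO1B (192), CRELD1 (233) and FKBP10 (264). The cause of each change was not tested.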
